A study of Mus musculus with 2 samples.

Results

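Lineage transcription factors of the non-β islet cells were followed as 6 genes of the 31053 in the deposited tables: *Irx1*, *Irx2*, *Pou3f4*, *Hhex*, *Etv1* and *Meis2*. They were taken by symbol, as transcription factors known from α cells (*Irx1*, *Irx2*, *Pou3f4*), δ cells (*Hhex*) and PP cells (*Etv1*, *Meis2*). Islet cells of WT mice and of *Npc1*-/- mice, which lack the lysosomal cholesterol transporter NPC1, had been captured with a droplet method that counts the 3′ ends of transcripts with unique molecular identifiers (UMIs). There was 1 library per genotype, and each was made from the pooled islets of 3 female mice aged 2 weeks. The knockout is in every cell of the animal, and the *Npc1*-/- mice and their WT littermates were on a C57BL/6J background. Because a genotype had 1 library and cells of a library are not replicates, no p-value is given. Every interval is a 95% interval for counting error only, and PCR or capture differences between the libraries are not in it.

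The mouse islet holds β, α, δ and PP cells (also called γ cells), which release insulin, glucagon, somatostatin and pancreatic polypeptide. All of them arise from endocrine progenitors, and lineage transcription factors hold the choice between them. HHEX is required for the δ fate, where it acts mainly as a repressor. IRX1 and IRX2 are Iroquois homeodomain proteins, POU3F4 (also called BRN4) is a POU domain protein of the glucagon lineage, ETV1 belongs to the ETS family and MEIS2 is a TALE homeodomain cofactor that pairs with PBX proteins. In the young islet many cells still carry the messages of a second hormone.

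Kept barcodes, 4628 in WT and 4269 in *Npc1*-/-, passed limits of over 1000 genes, below 50000 UMIs, and less than 10% of UMIs from mitochondrial and no more than 0.1% from haemoglobin genes. They had a median of 18905 and 21381 UMIs. Each was put in the class of its largest hormone when that hormone took at least 10% of its UMIs. This gave 1833 and 1826 insulin cells, 775 and 574 glucagon cells with PP hormones (*Ppy* and *Pyy* together) under 3% of UMIs, 273 and 283 PP-rich glucagon cells at or above 3%, 189 and 141 somatostatin cells, and 411 and 442 PP hormone cells. Here and below, the first value of a pair is WT and the second *Npc1*-/-. The hormone cuts make ranges and not types: 181 and 174 glucagon cells had 2 to 4% PP hormones, and 80 and 62 barcodes had a leading hormone at 8 to 12%. The marker *Ttr* of α cells was at 27216 and 23953 CPM (counts scaled to 1000000 UMIs of the class) in glucagon cells low in PP hormones, and *Rbp4* of δ cells was at 7386 and 5836 CPM in somatostatin cells. *Npc1* itself was at 8.40 and 4.14 CPM over all kept barcodes, 0.493 times as high in the *Npc1*-/- library (interval 0.436 to 0.558). B-cell-like barcodes numbered 141 and 1, so the lymphoid makeup differed between the libraries. The libraries shared 3 kept barcodes.

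In GRCm38, *Irx1* lies on chromosome 13 at 71957921 to 71963723 on the minus strand, and *Irx2* on the same chromosome at 72628820 to 72634198 on the plus strand, with 665 kb between them. *Pou3f4* lies on chromosome X at 110814280 to 110817207, *Hhex* on chromosome 19 at 37434810 to 37440731, *Etv1* on chromosome 12 at 38779380 to 38870484 and *Meis2* on chromosome 2 at 115863064 to 116065839. No annotated gene overlapped any of them, so their counts were not shared with a neighbour. RefSeq promoter windows (GRCm38.p6) matched 5 of the 6 by symbol. Those of *Irx2*, *Pou3f4* and *Hhex* are printed because these are the α and δ cell factors with a window in that table. Only bases before both the RefSeq and the GENCODE start are shown, 5′ to 3′ on the plus strand, with the homeodomain core TAAT (or its reverse complement ATTA) in capitals.
Irx2, chr13:72628570-72628819: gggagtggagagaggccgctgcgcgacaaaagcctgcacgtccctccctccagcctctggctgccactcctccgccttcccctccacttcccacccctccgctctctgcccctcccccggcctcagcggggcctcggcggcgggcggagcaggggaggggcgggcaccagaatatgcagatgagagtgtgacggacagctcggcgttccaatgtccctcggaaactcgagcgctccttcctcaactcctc
Pou3f4, chrX:110814129-110814279: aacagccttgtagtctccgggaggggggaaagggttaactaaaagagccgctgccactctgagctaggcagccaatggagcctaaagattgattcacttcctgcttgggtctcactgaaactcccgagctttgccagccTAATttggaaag
Hhex, chr19:37434591-37434809: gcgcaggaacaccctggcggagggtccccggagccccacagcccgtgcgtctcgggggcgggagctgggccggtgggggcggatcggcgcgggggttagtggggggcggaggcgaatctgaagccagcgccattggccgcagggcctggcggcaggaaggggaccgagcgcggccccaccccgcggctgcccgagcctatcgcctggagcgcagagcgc
In the full 250 bases before the RefSeq start, the GC content was 68.4% for *Irx2*, 58.0% for *Pou3f4* and 76.0% for *Hhex*, against a median of 52.4% over 32851 promoters. The TAAT core, sought on both strands, stood once in the *Pou3f4* window, in neither the *Irx2* nor the *Hhex* window, and in 54.9% of all windows. The *Meis2* window held 2, and the windows of both *Etv1* starts held 2 and 4. None of these windows held the Iroquois letters ACANNTGT (6.31% of all windows), the POU octamer ATGCAAAT (1.60%), the ETS letters CCGGAAGT (2.88%) or the MEIS letters TGACAG (15.9%). These counts describe the letters in these windows only.

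The first question was in which hormone class each factor had its highest level. *Irx1*, *Irx2* and *Pou3f4* were highest in glucagon cells and *Hhex* in somatostatin cells in both libraries. *Etv1* and *Meis2*, the factors taken from PP cells, were instead highest in glucagon cells and in somatostatin cells. In all, 4 of the 6 had their highest CPM in the class they were taken for. Either part of the glucagon cells counted for *Irx1*, *Irx2* and *Pou3f4*. The share of all genes highest in a given class was not taken, so this count is a description only.

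*Irx1* was at 165 and 154 CPM in glucagon cells low in PP hormones (intervals 158 to 172 and 147 to 161) and at 118 and 136 CPM in PP-rich glucagon cells. In PP hormone cells it was at 11.2 and 10.8 CPM, in insulin cells at 1.93 and 1.48 CPM, and in somatostatin cells at 0.368 and 2.47 CPM, the last from 1 and 6 UMIs. Glucagon cells thus stood apart from the other 3 hormone groups in both libraries, and the intervals of insulin and somatostatin cells overlapped in each library. Its neighbour *Irx2* was at 158 and 148 CPM in glucagon cells low in PP hormones, 113 and 126 CPM in PP-rich glucagon cells, 22.5 and 22.5 CPM in PP hormone cells, 6.63 and 5.35 CPM in somatostatin cells and 2.15 and 3.19 CPM in insulin cells. Against insulin cells, the glucagon cells low in PP hormones held 85.1 and 104 times the *Irx1* and 73.2 and 46.3 times the *Irx2*. *Pou3f4* was at 26.4 and 27.9 CPM in glucagon cells low in PP hormones, 15.2 and 19.3 CPM in PP-rich ones, 7.36 and 10.8 CPM in PP hormone cells, and 1.23 CPM or less in somatostatin and insulin cells. The 3 genes thus shared the order of their 3 highest classes.

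*Hhex* was at 396 and 343 CPM in somatostatin cells (intervals 373 to 421 and 320 to 367). PP hormone cells held 101 and 103 CPM, PP-rich glucagon cells 24.3 and 19.3 CPM, insulin cells 4.65 and 3.56 CPM, and glucagon cells low in PP hormones 1.05 and 1.20 CPM, from 14 and 13 UMIs. All neighbours in that order lay outside each other's intervals in both libraries. Outside somatostatin cells, however, most *Hhex* UMIs of these classes lay in barcodes with at least 1% *Sst*, as given below. Under 1% *Sst*, all glucagon cells together were no lower in *Hhex* than insulin cells. With the highest Scrublet scores removed, the *Hhex* UMIs of insulin cells went from 255 and 193 to 35 and 79. Beyond the hormone classes, *Hhex* was at 61.2 and 66.9 CPM in endothelial-like cells and at 74.1 and 63.7 CPM in macrophage-like cells, and B-cell-like barcodes of the WT library held 147 CPM. It is known from endothelium and blood cells as well as from the δ lineage.

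*Etv1* had its highest level in glucagon cells, at 378 and 303 CPM where PP hormones were low and 368 and 329 CPM where they were high. It was at 229 and 220 CPM in PP hormone cells and 195 and 199 CPM in somatostatin cells, and the intervals of these classes overlapped in *Npc1*-/- (210 to 229 and 181 to 217 CPM). Insulin cells were the one hormone class with little of it, at 11.4 and 12.8 CPM. *Meis2* was detected in every hormone class: 409 and 393 CPM in somatostatin cells, 233 and 260 CPM in PP hormone cells, 191 and 184 CPM in PP-rich glucagon cells, 159 and 158 CPM in the other glucagon cells and 106 and 113 CPM in insulin cells. Its range over the hormone classes was therefore far narrower than that of the other 5 factors. Endothelial-like cells also held *Meis2*, at 154 and 146 CPM.

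**Figure D1:**
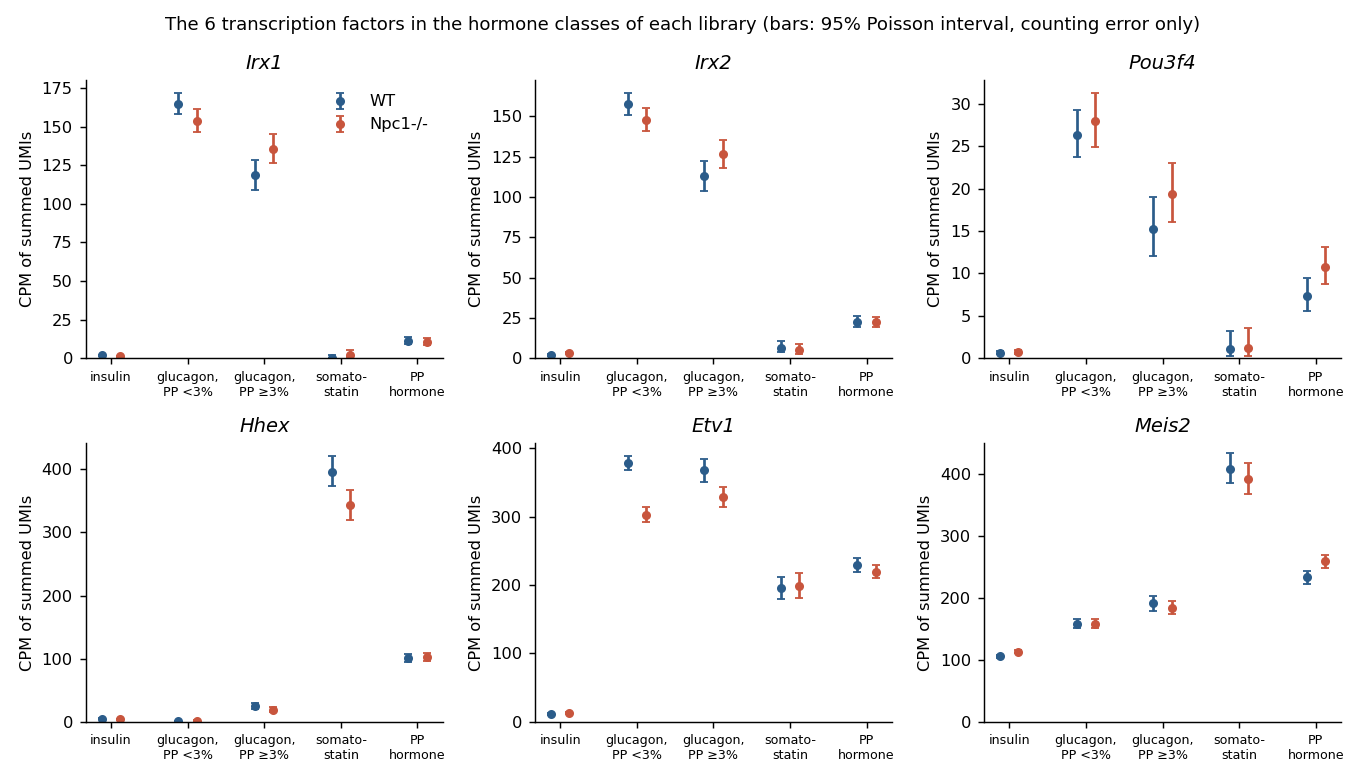
Level of each transcription factor (y axis, CPM of the summed UMIs) in 5 hormone classes (x axis) of the WT (blue) and *Npc1*-/- (red) library, with 95% Poisson intervals for counting error. *Irx1*, *Irx2* and *Pou3f4* are highest in glucagon cells, with *Pou3f4* at 7.36 and 10.8 CPM in PP hormone cells. *Hhex* peaks in somatostatin cells, and *Meis2* rises from insulin cells (106 and 113 CPM) to somatostatin cells (409 and 393 CPM).

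Because the hormones take different shares of the UMIs in each class (insulin 51.9% and 49.3% in insulin cells, glucagon 31.7% and 30.7% in glucagon cells low in PP hormones), classes were also compared relative to the median gene, and a gene counted as higher when it was at least 2-fold above that median in both libraries. In glucagon cells low in PP hormones over insulin cells, 4 of the 5 factors with at least 5 CPM in either class passed this limit. They were *Irx1*, *Irx2*, *Pou3f4* and *Etv1*, and 6.34% of 9794 genes passed. *Meis2* differed from the median gene by 0.03 or less on the log2 scale there. In somatostatin over insulin cells 3 of 4 passed (*Hhex*, *Etv1* and *Meis2*), where 7.15% of all genes did, and in PP hormone over insulin cells 5 of 6 passed, all but *Meis2*, where 5.52% did. Of the *Hhex* UMIs in PP hormone cells, 792 of 821 and 899 of 960 lay in those with at least 1% *Sst*. In PP hormone cells under 1% *Sst* over insulin cells, *Hhex* did not pass. *Irx1*, *Irx2*, *Pou3f4* and *Hhex* were under 5 CPM in insulin cells and met the filter only through the other class. Factors low in both classes were not counted, so the counts follow in part from the filter. The classes were also chosen with the lineage of these genes known, so the counts describe them and do not single them out.

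The share of cells with a UMI gave the same picture at equal depth. After each cell was thinned to 5000 UMIs, *Irx1* had a UMI in 52.1% and 50.7% of glucagon cells low in PP hormones (87.1% and 85.9% unthinned, median depth 16846 and 18125 UMIs), against 0.664% and 0.443% of insulin cells (2.29% and 2.52% unthinned, median depth 30417 and 30094 UMIs). For endothelial-like cells, which are not endocrine, the thinned shares were 0.259% and 0.490% at a median depth of 7802 and 10285 UMIs. The 106 and 80 *Irx1* UMIs of insulin cells lay in 42 and 46 cells, with up to 12 and 5 in a single cell, against 1 and 2 UMIs in all endothelial-like cells. The insulin cells had far more UMIs in all, and in CPM the levels were 1.93 and 1.48 against 0.228 and 0.365. The part of free RNA and of paired cells in these UMIs was not tested. *Hhex* had a UMI in 79.6% and 79.1% of somatostatin cells after thinning (94.2% and 97.2% unthinned) and in 1.07% and 0.714% of glucagon cells low in PP hormones. *Etv1* was seen in 4.54% and 5.93% of insulin cells, beside 5.44% and 4.90% of endothelial-like cells, and in 78.0% and 72.0% of glucagon cells low in PP hormones. *Meis2* had a UMI in 40.0% and 43.7% of insulin cells and in 0 of 42 and 0 of 33 macrophage-like cells, which allows shares of up to 7.14% and 9.09%.

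**Figure D2:**
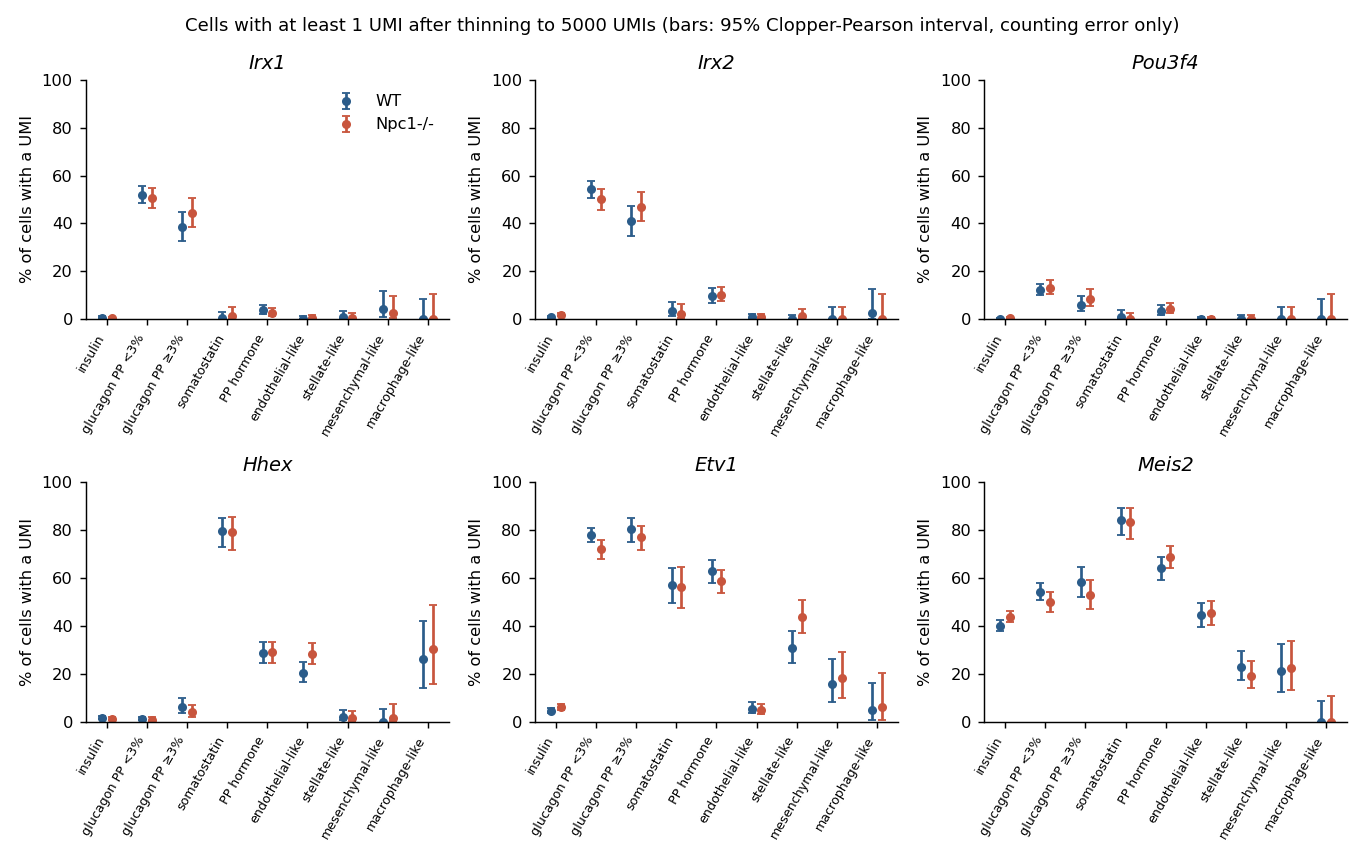
Percentage of cells with at least 1 UMI (y axis) after thinning to 5000 UMIs, by class (x axis), in WT (blue) and *Npc1*-/- (red), with 95% Clopper-Pearson intervals. *Hhex* is found in 79.6% and 79.1% of somatostatin cells and again in endothelial-like and macrophage-like cells, while *Irx1*, *Irx2* and *Pou3f4* are low outside glucagon and PP hormone cells.

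PP hormone cells were not 1 population for these factors. By their somatostatin transcript, 264 and 279 of them had under 0.3% *Sst* and 137 and 158 had at least 3%, and only 10 and 5 cells lay between. Split at 1% *Sst*, the cells under it (267 and 280) held more *Irx1*, *Irx2* and *Pou3f4*, and those at or above it (144 and 162) held more *Hhex*. Below, these are called the cells without and with *Sst*. The first were low in *Sst* and not free of it: 190 of 264 and 220 of 279 cells under 0.3% had an *Sst* UMI. The 1% limit was chosen after the gap had been seen.

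In PP hormone cells with at least 1% *Sst*, *Hhex* was at 333 and 297 CPM, and in those below 1% at 5.02 and 9.64 CPM, from 29 and 61 UMIs. The ratio was 66.4 and 30.8. The reverse held for the α factors. *Irx2* was at 29.1 and 29.7 CPM without *Sst* and 6.32 and 7.26 CPM with it, and *Irx1* at 13.9 and 14.4 CPM without and 4.63 and 3.30 CPM with it. *Pou3f4* was at 10.0 and 14.5 CPM without *Sst* and at 0.842 and 2.97 CPM with it. *Meis2* went the other way, from 175 and 197 CPM without to 376 and 391 CPM with *Sst*, the latter near the 409 and 393 CPM of somatostatin cells. In CPM *Etv1* differed least, at 245 and 224 CPM without and 191 and 210 CPM with *Sst*. The median gene itself was at 0.43 and 0.30 on the log2 scale in the cells with *Sst* over those without. The ranking of *Etv1* therefore holds for CPM. Relative to the median gene, *Meis2* differed least in WT and *Etv1* differed least in *Npc1*-/-.

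Relative to the median gene, *Irx1*, *Irx2* and *Pou3f4* were at least 2-fold higher in the PP hormone cells without *Sst* in both libraries, as were 2.15% of 9966 genes. *Hhex* was so in those with it, as were 3.99%. *Irx1* and *Pou3f4* met the filter of 5 CPM only through the cells without *Sst*. Other δ cell genes moved with *Hhex*: the receptor tyrosine phosphatase *Ptprz1* was at 82.5 and 67.7 CPM with *Sst* and 2.77 and 2.53 CPM without. The ghrelin receptor *Ghsr* was at 20.6 and 21.5 CPM with *Sst* and 0.949 CPM without in *Npc1*-/-. No *Ghsr* UMI was found without *Sst* in WT, which allows up to 0.519 CPM by the limit of 3 counts. From the other side, somatostatin cells carried PP hormones at 11.1% and 11.8% of their UMIs, and only 7 and 3 of them had no second hormone at 5% or more. The cells led by PP hormones with *Sst* and the cells led by *Sst* thus differed little in *Hhex*, with a ratio of 0.841 and 0.864.

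**Figure D3:**
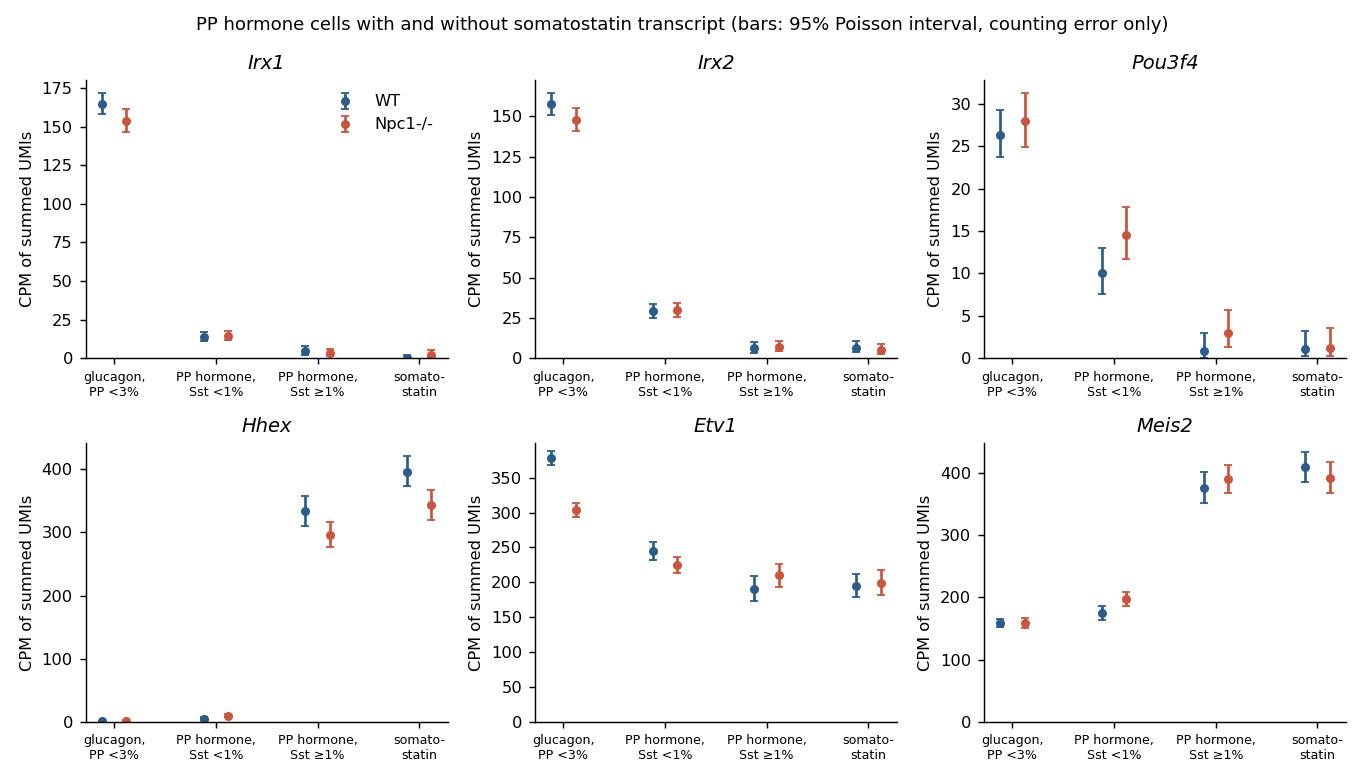
Level (y axis, CPM) of the 6 factors in glucagon cells low in PP hormones, in PP hormone cells below and above 1% *Sst*, and in somatostatin cells, with 95% Poisson intervals; WT blue, *Npc1*-/- red. *Irx2* is at 29.1 and 29.7 CPM in PP hormone cells without *Sst* and *Hhex* at 333 and 297 CPM in those with it.

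Single PP hormone cells seldom held both *Hhex* and *Irx2*. Among those thinned to 5000 UMIs, 114 and 117 had *Hhex* alone, 37 and 37 had *Irx2* alone, and 2 and 7 of 404 and 430 had both. *Hhex* was found in 5.13% and 15.9% of the cells with *Irx2* and in 31.2% and 30.3% of the cells without it. All of the cells with both lay among those with at least 1% *Sst*. Within these, *Hhex* was found in 2 of 3 and 7 of 8 cells with *Irx2* and in 79.7% and 73.2% of those without it, so the low overlap was one between the cells with and without *Sst*. In glucagon cells low in PP hormones, *Irx2* had a UMI in 57.9% and 52.1% of the cells with *Irx1* and in 50.1% and 47.8% of those without it. That difference was small in both libraries. In PP-rich glucagon cells the shares were 50% and 46.4% with *Irx1* and 35.2% and 47.4% without it.

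*Hhex* followed *Sst* in the other classes too. In insulin cells with at least 1% *Sst*, 52 and 58 in number, it was at 116 and 86.7 CPM, against 0.568 and 0.383 CPM in the remaining insulin cells. Among all glucagon cells, the 25 and 27 with at least 1% *Sst* were at 179 and 132 CPM and the others at 0.619 and 1.04 CPM, so 128 of the 139 and 118 of the 135 *Hhex* UMIs in glucagon cells lay with them. These barcodes were large: the insulin cells with *Sst* had a median of 39843 and 37869 UMIs and 5487 and 5611 genes, against 30253 and 30024 UMIs and 4115 and 4296 genes. After thinning, *Hhex* and *Irx2* were found together in 4 of 25 and 3 of 27 glucagon cells with *Sst*, against 2 of 988 and 2 of 814 of the other glucagon cells. The part of paired cells under 1 barcode was not tested. With the barcodes of highest Scrublet score removed (317 and 261), the log2 ratio of somatostatin over insulin cells for *Hhex* went from 6.41 and 6.59 to 9.14 and 7.76. These are ratios of CPM, not relative to the median gene.

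Within glucagon cells the α factors were lower at the highest PP hormone share than at the lowest, and of them *Pou3f4* alone was lower in every bin than in the one before. From cells under 0.3% *Ppy* and *Pyy* to those at 10% or more, *Irx1* went from 169 to 94.2 CPM in WT and from 143 to 91.0 CPM in *Npc1*-/-, with intervals that did not overlap (155 to 184 against 73.1 to 119, and 126 to 161 against 74.5 to 110). *Pou3f4* went from 34.2 to 13.9 CPM and from 34.0 to 18.7 CPM over the same bins, and *Irx2* from 149 to 115 CPM and from 142 to 111 CPM. The end intervals overlapped for *Irx2* in both libraries and for *Pou3f4* in *Npc1*-/-. The middle bins did not all lie between these ends. In *Npc1*-/-, *Irx1* was at 155, 157 and 146 CPM in the bins from 0.3 to 1%, 1 to 3% and 3 to 10%, so it was lower in the top bin alone. *Irx2* was at 157, 163 and 112 CPM in these bins in WT and at 165, 138 and 130 CPM in *Npc1*-/-. *Meis2* was higher in each bin than in the one before, from 143 to 204 CPM and from 140 to 195 CPM. *Sst* went from 164 to 7163 CPM and from 173 to 10235 CPM between the same end bins, and the part of cells with *Sst*, in which *Meis2* is high, was not tested. The highest bin held 38 and 50 cells, and its median depth was 19376 and 21178 UMIs against 16355 and 18089 in the lowest. Of the 6 factors, *Hhex* and *Meis2* were higher in the PP-rich than in the other glucagon cells in both libraries. *Hhex* alone was over 2-fold, as were 0.401% of 9728 genes, and it met the filter of 5 CPM only through the PP-rich cells. With the highest Scrublet scores removed, the *Hhex* UMIs of PP-rich glucagon cells went from 125 and 122 to 14 and 40. In the opposite direction 0.288% of genes and none of the factors passed 2-fold.

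**Figure D4:**
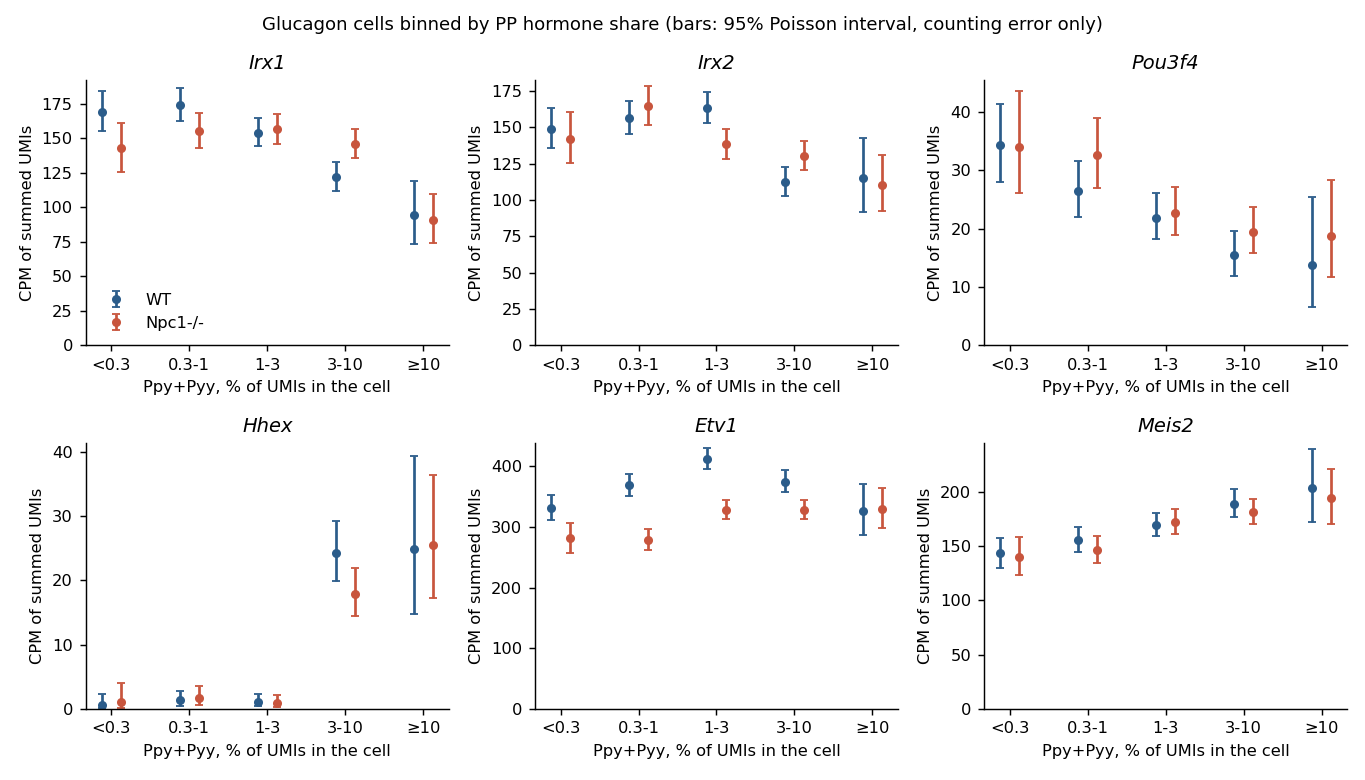
Level of each factor (y axis, CPM) in glucagon cells binned by the share of *Ppy* and *Pyy* in their UMIs (x axis, percent), WT blue and *Npc1*-/- red, with 95% Poisson intervals. *Pou3f4* falls from 34.2 and 34.0 CPM to 13.9 and 18.7 CPM, *Meis2* rises, and *Hhex* is near 0 below 3%.

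In insulin cells *Etv1* and *Meis2* were both higher at 3 to 10% PP hormones than under 0.3%. From under 0.3% to between 3 and 10% PP hormones, *Etv1* went from 6.04 to 38.9 CPM in WT and from 8.58 to 31.9 CPM in *Npc1*-/-, and *Meis2* from 93.4 to 177 CPM and from 93.8 to 144 CPM. The same bins held more *Sst* (44.6 and 54.9 CPM against 18544 and 10180 CPM) and more *Hhex* (0.403 and 0.322 CPM against 51.8 and 21.5 CPM), and the part of these cells in the difference was not tested. Below 3%, *Etv1* did not rise in *Npc1*-/-, at 7.94 CPM from 0.3 to 1% and 8.91 CPM from 1 to 3%. At 10% or more, 45 *Npc1*-/- cells held *Etv1* at 56.6 CPM, *Meis2* at 215 CPM, *Hhex* at 14.0 CPM and *Sst* at 10486 CPM. In WT only 16 cells lay there, too few for a level.

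The genotype comparison asked whether the loss of *Npc1* moved these factors in their own classes. None of the 6 was past 1.5-fold from the median gene. The share of all genes past that limit was 3.32% of 9985 in glucagon cells low in PP hormones, 11.9% of 10388 in somatostatin cells and 4.38% of 9971 in PP hormone cells, so a count of 0 among 6 is near the background. In glucagon cells low in PP hormones, the log2 ratio of *Npc1*-/- over WT relative to the median gene was -0.15 for *Irx1* (interval -0.25 to -0.06), -0.15 for *Irx2* (-0.24 to -0.05) and 0.03 for *Pou3f4* (-0.20 to 0.25). In somatostatin cells *Hhex* was at -0.22 (-0.35 to -0.09). In PP hormone cells *Etv1* was at -0.12 (-0.21 to -0.03) and *Meis2* at 0.09 (0.01 to 0.18).

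Outside the class each factor was taken for, *Pou3f4* was at 0.49 (0.02 to 0.98) in PP hormone cells, on 60 and 101 UMIs. *Etv1* differed in glucagon cells low in PP hormones, where it was at 378 CPM (WT) and 303 CPM (*Npc1*-/-), a relative log2 ratio of -0.38 (-0.44 to -0.31), with 5053 and 3290 UMIs behind it. In PP-rich glucagon cells it was at -0.15 (-0.24 to -0.06), and in somatostatin cells at 0.01 (-0.17 to 0.19). *Irx1* and *Irx2* were at 0.21 (0.06 to 0.36) and 0.18 (0.02 to 0.34) in PP-rich glucagon cells, opposite in sign to the other glucagon cells. Among the other classes compared, past 1.5-fold were *Hhex* in PP hormone cells with under 1% *Sst*, at 0.84 (0.19 to 1.54), where 7.22% of genes were, and *Etv1* in stellate-like cells, at 78.1 and 123 CPM or 0.65 (0.35 to 0.97), where 13.8% were. Of the *Hhex* UMIs in PP hormone cells under 1% *Sst*, 19 of 29 in WT came from 2 of the 3 cells with 0.3 to 1% *Sst*. In *Npc1*-/-, 53 of 61 came from 8 of the 279 cells under 0.3%. Below 0.3% *Sst* the levels were 1.74 and 8.42 CPM (intervals 0.836 to 3.21 and 6.31 to 11.0). In the 49 and 33 macrophage-like cells *Etv1* and *Meis2* were also past it, on 10 and 2 and on 9 and 2 UMIs, with intervals that held 0, where 39.4% of genes were past it. Of the 2, 6, 4 and 3 factors with at least 5 CPM in insulin cells, PP-rich glucagon cells, PP hormone cells with *Sst* and endothelial-like cells, none was past it, where 2.65%, 5.44%, 11.7% and 7.14% of genes were. In all 5 hormone classes *Meis2* stayed between -0.07 and 0.09. Differences of this size between single libraries cannot be told apart from differences between pools of animals.

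**Figure D5:**
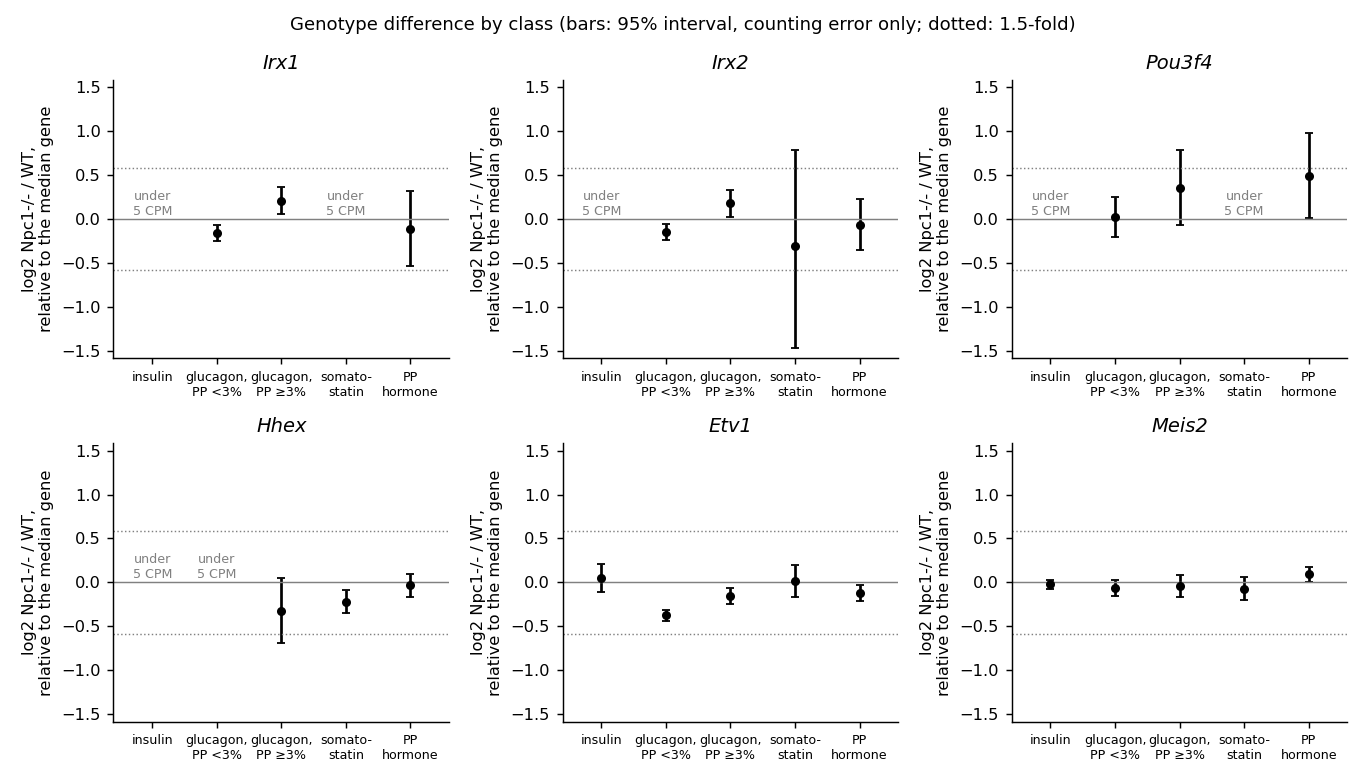
Log2 ratio of *Npc1*-/- over WT (y axis), relative to the median gene of the class, for each factor by hormone class (x axis), with 95% intervals for counting error; dotted lines mark 1.5-fold, and classes where a factor had under 5 CPM in both libraries have no point. No point lies past 1.5-fold, and *Etv1* in glucagon cells low in PP hormones is lowest among the *Etv1* values, at -0.38.

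Relatives of the 6 genes were mostly absent from the hormone classes or not 2-fold higher in the comparisons made. Of 15 (*Irx3* to *Irx6*, *Pou3f1* to *Pou3f3*, *Etv4*, *Etv5*, *Meis1*, *Meis3*, *Pbx2*, *Pbx3*, *Pknox1* and *Pknox2*), 6 had at least 5 CPM in the comparison of glucagon cells low in PP hormones with insulin cells. None of these 6 was 2-fold above the median gene there, where 6.34% of genes were, and their median relative log2 values were -0.35 and -0.46. The same count, 0 of 6, held for somatostatin over insulin cells, where 7.15% of genes passed. Both counts are near the background. *Irx3*, *Irx4*, *Irx5*, *Irx6*, *Pou3f2*, *Pou3f3* and *Etv4* had less than 0.5 CPM in each of the 5 hormone classes, so *Irx1* and *Irx2* were the Iroquois genes above that level. *Pbx3*, of a family that pairs with MEIS proteins, passed in somatostatin over glucagon cells low in PP hormones (50.1 and 46.5 against 13.0 and 13.1 CPM), where 6.41% of genes did. *Pbx3* was 1 of the 6 relatives with at least 5 CPM there. It also passed in PP hormone cells over the same glucagon cells, at 35.9 and 42.4 CPM, as 1 of 5 relatives. The share of all genes was not taken for that comparison, so this pass has no background. *Pou3f1* passed in PP hormone cells with *Sst* over those without (7.58 and 10.2 against 0 and 0.632 CPM), where 3.99% of genes did. It was 1 of the 7 relatives with at least 5 CPM there, and it met that filter only through the cells with *Sst*.

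Among 14 pan-endocrine and β cell partners, 12 were testable in glucagon cells low in PP hormones over insulin cells. *Fev* alone passed 2-fold, where 6.34% of genes did, so this count is near the background. Somatostatin over insulin cells gave 2 of 12 (*Isl1* and *Fev*), where 7.15% of genes passed. *Isl1*, a LIM homeodomain gene of all islet lineages, was at 631 and 561 CPM in somatostatin cells and 361 and 282 CPM in glucagon cells low in PP hormones. Glucagon cells low in PP hormones over somatostatin cells gave 1 of 10 (*Nkx2-2*), where 5.57% of genes passed. In PP hormone cells without *Sst* over those with it, 3 of 12 partners were 2-fold higher (*Nkx2-2*, *Nkx6-1* and *Mnx1*), where 2.15% of genes were. *Mnx1* met the filter of 5 CPM only through the cells without *Sst*. *Nkx6-1*, a homeodomain gene best known from β cells, was at 117 and 151 CPM without *Sst* and 29.5 and 44.6 CPM with it. *Rfx6*, a winged-helix gene of endocrine progenitors, went the other way, at 18.9 and 24.5 CPM without and 54.3 and 63.1 CPM with *Sst*. In the genotype comparison, 0 of 11 partners were past 1.5-fold in PP hormone cells, where 4.38% of genes were. In the part under 1% *Sst*, 1 of 12 was, *Mafa*, higher at a relative log2 of 0.60 (-0.14 to 1.40), where 7.22% were. With at least 1% *Sst*, *Nkx6-1* was higher at 0.62 (0.20 to 1.06) and *Mafa* lower at -0.99 (-2.13 to 0.05). Both were past the limit, as were 11.7% of genes. In each of these parts *Mafa* met the filter of 5 CPM only through the library where it was higher. In insulin cells 1 of 12 partners was past it, *Fev*, on 82 and 298 UMIs. Its relative log2 was 1.75 (1.40 to 2.13), and 2.65% of genes were past the limit there. *Fev* met the filter of 5 CPM only through *Npc1*-/-. The β cell factor *Mafa* was lower in glucagon cells low in PP hormones, on 106 and 53 UMIs. It was the 1 of 11 past the limit there, where 3.32% of genes were. In PP-rich glucagon cells *Mafa* was lower on 44 and 19 UMIs (2 of 11, with *Pdx1*, also lower), where 5.44% of genes were. In somatostatin cells it was lower on 32 and 9 UMIs (2 of 11, with *Nkx6-1*, which was higher), where 11.9% were. In all of these glucagon and somatostatin classes *Mafa* met the filter of 5 CPM only through WT. Insulin transcripts took less of the UMIs in the same classes: 1.04% and 0.719% in glucagon cells low in PP hormones, 1.17% and 0.767% in PP-rich ones and 1.23% and 0.780% in somatostatin cells. In endothelial-like cells *Mafa* was at 14.2 and 7.67 CPM and insulin transcripts at 1.60% and 0.884% of UMIs. The part of these insulin transcripts in the *Mafa* values was not tested. *Mafa* was not alone in endothelial-like cells, where 6 of 8 partners were lower past 1.5-fold and 7.14% of genes were past it. The others were *Isl1*, *Nkx2-2*, *Insm1*, *Pdx1* and *Nkx6-1*. In macrophage-like cells 7 of 8 partners were lower past the limit, where 39.4% of genes were past it.

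The genes most like each factor were taken by Pearson's r of log2(CPM + 1) over 10 sums, which are 5 classes of each of 2 libraries and so share their cells and depth. The classes were set by the leading hormone, so the places of *Gcg* and *Sst* in these lists follow from that rule and are no separate result. For *Irx1* they were *Tmsb4x*, *Gcg*, *Sytl2*, *Kl* and *Tmsb15b1* (r from 0.994 to 0.987), and *Irx2* stood at rank 21 of 6455 genes with 0.971. For *Irx2* they were *Mamld1*, *Gm20554*, *Grb10*, *Slc38a5* and *Igsf21* (0.997 to 0.991), and for *Pou3f4* *Pdk4*, *Qsox1*, *Apod*, *Edn3* and *Cit* (0.993 to 0.982). *Hhex* was followed by *Ly6h*, *Efemp2*, *Ppp1r17*, *Cacna2d2* and *Sst* (0.996 to 0.992), *Etv1* by *Krt1*, *Prox1os*, *Camk2d*, *Eef1b2* and *Ccdc28b* (0.997 to 0.993), and *Meis2* by *Shisa5*, *Dock1*, *Dpp6*, *Stk39* and *Capsl* (0.996 to 0.993). Between the factors themselves, *Hhex* and *Meis2* had 0.897, *Irx2* and *Pou3f4* 0.9755, and *Irx1* and *Hhex* -0.507.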

How the data were processed

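For 1 WT and 1 *Npc1*-/- islet library the authors deposited unnormalized counts of UMIs, by barcode and gene, made with Cell Ranger 3.1.0 on mm10 per the submitters' processing notes, which also name Seurat 4.0.3. The library kit is version 3 in the labels and version 2 in the study's methods. The deposited barcodes numbered 8569 and 7646, with 114324626 and 127122035 UMIs. The study's cell filters had not been applied to them.

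The following steps used scanpy 1.11.5, scipy 1.17.1 and numpy 2.4.6 under Python 3.11.15. Barcodes were filtered and assigned to hormone classes as given above. Other barcodes were named from at least 3 detected markers of 1 cell type. Counts were summed per library and class and scaled to CPM, with exact Poisson intervals. Shares were given Clopper-Pearson intervals, and ratios intervals from the conditional binomial distribution, all at 95% and for counting error only. Log2 ratios used 0.5 added counts, a filter of 5 CPM in 1 of the compared sums at least, and the median gene as zero. The single class ratios of the alternatives, and the values they were set against, used neither the filter nor the median gene. Limits were 1.5-fold between genotypes and 2-fold between classes. Cells were thinned to 5000 UMIs, and shallower cells were left out. Doublets were left in, with removal by Scrublet score at the expected rate as an alternative. No test across genotypes was made, because each has 1 library. edgeR 4.0.16 was used for the TMM factor alone, in an alternative.

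The named genes were the 6 factors, 15 relatives, 14 partners, the class genes, *Npc1* and the 5 genes most like each factor (at least 20 CPM in 1 sum). The members and lists were chosen with earlier results of these data known. The summing and ratio steps were tested on simulated counts. Some listed genes are not reported here.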

Additional observations from a re-analysis of the deposited data

Results flagged for a closer look

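*Irx1* and *Irx2* differed between genotypes in opposite directions in the 2 parts of the glucagon cells, and the counting intervals excluded 0 on both sides. For *Irx1* the log2 ratio of *Npc1*-/- over WT relative to the median gene was -0.15 in glucagon cells low in PP hormones and 0.21 in PP-rich glucagon cells. For *Irx2* it was -0.15 and 0.18. The difference between the 2 parts was not tested, because each genotype has 1 library. Without barcodes that carried a second hormone at 5% or more, the *Irx1* value in PP-rich glucagon cells was 0.03. With the glucagon cells split at 1% in place of 3% PP hormones, the *Irx2* value in the PP-rich cells was -0.10.

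Insulin barcodes over 50000 UMIs were left out of every class. In these, *Meis2* was at 118 CPM in *Npc1*-/- (343 barcodes) and 104 CPM in WT (153 barcodes), and the interval of the ratio lay above 1. That ratio was of CPM and not relative to the median gene, unlike the other genotype values. In the kept insulin cells the median gene was itself at a log2 of 0.12, and *Meis2* was at -0.02 relative to it.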

How the results depend on the processing

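The number of factors highest in the class they were taken for stayed at 4 under each of 11 alternatives to the cell filter, hormone limits, doublets, scaling and split. The number past 1.5-fold between genotypes stayed at 0 under 13 of 14 and was 1 when barcodes with a second hormone at 5% or more were left out. That 1 was *Hhex* in somatostatin cells, at a log2 of -2.57 on 44 and 7 UMIs, and the alternative itself left only 7 WT and 3 *Npc1*-/- somatostatin cells. Factors higher in PP-rich glucagon cells numbered 2, and 3 without barcodes that had a second of insulin, glucagon and somatostatin at 5% or more. No single class ratio past the 2-fold limit changed sign. The genotype values were all within 1.5-fold to begin with, so this check could not apply to them. Some of those did change sign, among them *Irx2* in PP-rich glucagon cells, from 0.18 to -0.10. Of 112 single class ratios 47 moved beyond their counting interval, all within 0.72 to 9.49 on the log2 scale, and 7 of 165 single genotype values did. Levels under 1 CPM rest on few UMIs. No paired analysis was possible because the labels carry no replicate numbers and each genotype has 1 library. The alternative with PP hormone cells under 1% *Sst* was chosen after seeing the data, and *Etv1* was then at -0.22 between genotypes.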
